A study of Homo sapiens with 12 samples.

Results

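The 10 genes described here encode the type I and type II receptors for bone morphogenetic proteins (BMPs), activins and TGF-β. They were chosen by symbol, and all 10 were found among the 58302 gene identifiers of the count table. The BMP type I receptors were *BMPR1A*, *BMPR1B* and *ACVR1*, the type I receptors for activin or TGF-β were *ACVR1B*, *ACVR1C* and *TGFBR1*, and the type II receptors were *BMPR2*, *ACVR2A*, *ACVR2B* and *TGFBR2*. Of these, 8 had enough reads to be tested, and *BMPR1B* and *ACVR1C* did not.

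A ligand of this family brings type I and type II receptors into one complex, in which the type II kinase phosphorylates the type I kinase. BMP type I receptors then phosphorylate SMAD1, SMAD5 and SMAD9, and the activin and TGF-β type I receptors phosphorylate SMAD2 and SMAD3. BMPR2 is the dedicated BMP type II receptor, ACVR2A and ACVR2B serve both activins and BMPs, and TGFBR2 serves TGF-β.

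The RNA came from MIB1-iKO cells, a clonal derivative of the NCIH838 lung cancer line in which doxycycline (Dox) switches on Cas9 against *MIB1*, the gene of an E3 ubiquitin ligase. There were 4 groups of 3 libraries. LDN, a kinase inhibitor that blocks BMP type I receptors, was given to every culture at 50 nmol/L over an initial 3 days, during which the KO groups had 0.5 μg/mL Dox and the WT groups had none. BMP4 at 10 ng/mL then followed in every group for 24 hours, and LDN was either kept on (BMP-off) or replaced by DMSO (BMP-on). The 4 groups are therefore called WT BMP-off, WT BMP-on, KO BMP-off and KO BMP-on. The BMP response below means BMP-on against BMP-off, that is, DMSO against LDN. No group lacked BMP4, so signals of BMP4, of BMP ligands in the medium and other effects of LDN cannot be told apart. Because Dox was given to the KO groups alone, its own effect, that of Cas9 cutting and that of MIB1 loss cannot be told apart, and nothing states that the 3 libraries of a group came from separate cultures, so p-values measure only the spread between libraries.

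*MIB1* itself separated the groups. Its level was 176, 144 and 154 CPM (counts per 1000000 reads, scaled by the TMM method) in WT BMP-off and 158, 175 and 153 CPM in WT BMP-on. It was 34.2, 34.4 and 32.5 CPM in KO BMP-off and 33.0, 31.0 and 32.0 CPM in KO BMP-on, so every KO library lay below every WT library. Total counts ranged from 19124010 to 29498000. Libraries differed in a trend on GC content. The Spearman's rho across genes, between transcript GC and a library's deviation from its group mean, was -0.60 and 0.59 in KO BMP-off replicates 2 and 3, -0.43 and 0.40 in WT BMP-off replicates 1 and 3, and between -0.35 and 0.37 in the others. This may touch the receptors, since 9 of the 10 have a longest transcript with less GC than the median of 47.8% over tested genes. Of 6 epithelial markers 5 reached 1 RPKM in at least 1 library, led by *KRT18* at 71.1 to 85.4 RPKM, whereas the lung lineage factor *NKX2-1* was at 0.0114 RPKM or less, and none of the 3 endothelial or 3 leukocyte markers reached 1 RPKM.

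The receptors lie on several chromosomes, with 4 of them on chromosome 2 (GRCh38, GENCODE release 44). *BMPR2* (ENSG00000204217) spans chr2:202376327-202567751 on the plus strand, and *ACVR2A* spans chr2:147844517-147930826. *ACVR1* (ENSG00000115170) spans chr2:157736251-157876330 on the minus strand, and *ACVR1C*, on the same strand, ends 107386 bases before it. The other type I genes are *BMPR1A* at chr10:86756596-86932825, *BMPR1B* at chr4:94757955-95158448, *ACVR1B* at chr12:51951699-51997078 and *TGFBR1* at chr9:99104038-99154192. Both remaining type II genes are on chromosome 3, *ACVR2B* at chr3:38453890-38493142 and *TGFBR2* at chr3:30606601-30694142.

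*BMPR2* and *ACVR1* were the receptors that passed a test in any comparison, and their promoters are shown for that reason. The sequences are RefSeq promoters of GRCh38.p14, 250 bases before to 50 bases after the start, read 5′ to 3′ on the gene's strand. *BMPR2* is covered at chr2:202376077-202376376 on the plus strand and *ACVR1*, for the first of 3 listed starts, at chr2:157876281-157876580 on the minus strand. Capitals mark GGCGCC, a GC-rich motif that BMP SMADs are known to bind.

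BMPR2: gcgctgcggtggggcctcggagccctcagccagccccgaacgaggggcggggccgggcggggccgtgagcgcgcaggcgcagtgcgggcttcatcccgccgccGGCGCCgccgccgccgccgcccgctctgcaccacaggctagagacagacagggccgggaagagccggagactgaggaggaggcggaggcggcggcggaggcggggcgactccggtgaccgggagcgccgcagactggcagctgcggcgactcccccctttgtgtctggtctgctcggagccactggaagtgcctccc
ACVR1: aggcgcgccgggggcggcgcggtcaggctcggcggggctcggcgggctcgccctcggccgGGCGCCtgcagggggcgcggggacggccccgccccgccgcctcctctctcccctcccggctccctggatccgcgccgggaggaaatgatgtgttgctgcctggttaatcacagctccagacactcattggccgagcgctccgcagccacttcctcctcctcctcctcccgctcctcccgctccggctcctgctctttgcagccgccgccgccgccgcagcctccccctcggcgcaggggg

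Each of these promoters holds GGCGCC 1 time. The motif reads the same on both strands and was present in 3 of the 10 receptor promoters, the other being *ACVR1B* with 4 matches, and in 18.97% of 27305 promoters in all. The SMAD-binding palindrome GTCTAGAC was in 0 of the 10 and in 0.201% of all promoters. Of the 10 receptors 6 have more than 1 listed promoter, and both searches used 1 per receptor. Both promoters shown are rich in G and C, at 76.7% for *BMPR2* and 76.3% for *ACVR1*, whereas the transcripts are not, at 39.1% and 38.5%. A match is a description of the letters only.

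Levels of different receptors were compared on the RPKM scale, reads per kilobase of gene model per 1000000 reads, as deposited. *TGFBR1* had the highest mean, 28.4 ± 2.09 RPKM (SD, n = 12 libraries), followed by *TGFBR2* with 27.0 ± 1.21. *BMPR2* came next with 17.2 ± 3.16, and then *ACVR1*, a BMP type I receptor also known as ALK2, with 16.2 ± 1.40. The ranges of *TGFBR1* and *TGFBR2* over the 12 libraries overlapped, as did those of *BMPR2* and *ACVR1*, so that neither order exceeded the spread.

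Below these came *ACVR1B* with 6.35 ± 0.245 RPKM, *ACVR2A* with 5.22 ± 0.346, *ACVR2B* with 4.001 ± 0.402 and *BMPR1A* with 1.80 ± 0.177. From *ACVR1* down to *BMPR1A* each receptor's 12 values lay above all 12 of the next. *BMPR1A*, also known as ALK3, depends most on the length used. Divided by its longest transcript of 6417 bases rather than by the gene model of about 10793 bases that its RPKM implies, its mean was 3.03 CPM per kilobase, and all 10 ranks stayed the same on that scale. *BMPR1B* and *ACVR1C* were close to absent at this depth, with 2 to 13 and 2 to 15 reads per library. Their RPKM values of 0.0161 to 0.0953 and 0.00806 to 0.0598 overlapped.

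**Figure D1:**
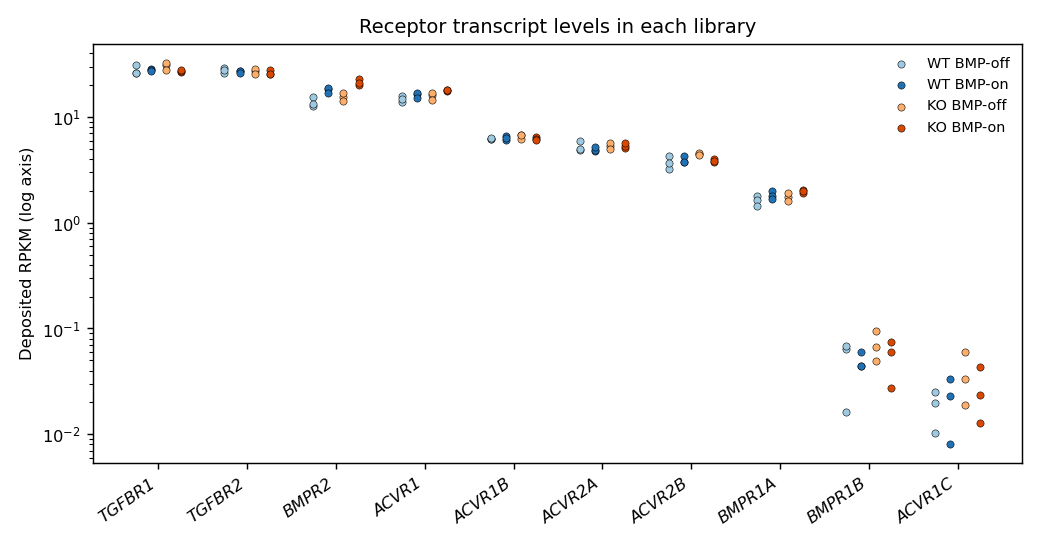
Deposited RPKM (log axis) of the 10 receptors, ordered by their mean, with 1 point for each of the 12 libraries coloured by group. 8 receptors lie between 1.45 and 32.4 RPKM, and *BMPR1B* and *ACVR1C* stay under 0.1 RPKM in every library.

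On the RPKM scale the position of *BMPR2* relative to *ACVR1* shifted between groups. In WT BMP-off *BMPR2* was at 15.6, 12.7 and 13.2 RPKM and *ACVR1* at 15.7, 13.9 and 14.8. In KO BMP-on *BMPR2* was at 20.0, 22.9 and 21.1 RPKM and *ACVR1* at 17.5, 18.2 and 18.0. The values of the receptors overlapped in the first group, where no order was shown, and did not in the second. Their relative position depends on the length used. The gene model and longest transcript were about 10997 and 12068 bases for *BMPR2* and about 3386 and 4435 bases for *ACVR1*. Per kilobase of longest transcript, the means over 12 libraries were 15.7 CPM for *BMPR2* and 12.4 CPM for *ACVR1*. As a share of the summed RPKM of the 4 type II receptors, *BMPR2* made up 27.4% ± 0.904 (SD, n = 3) in WT BMP-off, 33.4% ± 1.01 in WT BMP-on, 29.5% ± 0.845 in KO BMP-off and 37.5% ± 0.579 in KO BMP-on. *ACVR1* made up between 88.9% and 90.9% of the summed RPKM of the 3 BMP type I receptors in every library, with group means of 89.6% to 89.8%. This share holds for the RPKM scale only. Per kilobase of longest transcript the means were 12.4 CPM for *ACVR1*, 3.03 for *BMPR1A* and 0.0567 for *BMPR1B*, so the *ACVR1* share is lower there.

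The first comparison asked how receptor transcripts changed when LDN was removed and BMP4 could signal, in WT cells. *BMPR2* rose by a log2 fold change of 0.40 (SE 0.08, adjusted p = 0.0066, edgeR quasi-likelihood test with Benjamini-Hochberg adjustment over 17188 genes), a 1.32-fold change. It was at 169, 140 and 145 CPM in WT BMP-off and at 203, 210 and 186 CPM in WT BMP-on, and all BMP-on libraries lay above all BMP-off libraries. In bulk RNA, a rise in every cell and a larger share of cells with more transcript cannot be told apart. None of the other 7 tested receptors passed. In this comparison 3.92% of all tested genes passed, and 11.2% had BMP-on libraries that all lay above the BMP-off libraries, which 1 receptor did. The study also asked for a log2 fold change of 1 or more in size. No receptor met both thresholds in any comparison by edgeR, whereas 0.425% of all genes did in the WT response, 1.66% in the KO response, 0.140% and 0.0116% in KO against WT with BMP-on and BMP-off, and 0.00% in the interaction.

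This call was lost by a small margin on log2(RPKM + 1) values, with an adjusted p of 0.051 by limma, where 2.31% of genes passed. It was kept without each library in turn, at adjusted p values of 0.00057 to 0.049. *ACVR1* was at 52.4, 47.2 and 49.8 CPM in WT BMP-off and at 56.3, 57.7 and 52.3 CPM in WT BMP-on, overlapping by a small margin, with a log2 fold change of 0.15 (SE 0.06, unadjusted p = 0.023, adjusted p = 0.21, edgeR). Its adjusted p lay between 0.025 and 0.57 over the alternatives, and it passed only with a correction for transcript GC content, under which 8.89% of all genes passed. *BMPR1A* had a log2 fold change of 0.17 with a 95% confidence interval of -0.01 to 0.36.

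The receptors for activin and TGF-β gave smaller values in WT cells. The log2 fold changes were 0.04 for *ACVR1B*, the main activin type I receptor, 0.03 for *TGFBR1*, -0.07 for *ACVR2A*, 0.10 for *ACVR2B* and -0.02 for *TGFBR2*. Their 95% intervals reached from -0.22 to 0.27 in all, so changes beyond these bounds lie outside the intervals and smaller ones were not resolved. The median over the 8 tested receptors was 0.07, beside 0.00 over all tested genes.

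In KO cells the same removal of LDN raised *BMPR2* and *ACVR1*. *BMPR2* was at 168, 180 and 157 CPM in KO BMP-off and at 223, 254 and 235 CPM in KO BMP-on, a log2 fold change of 0.49 (SE 0.08, adjusted p = 0.00030, edgeR), or 1.41-fold. *ACVR1* was at 54.6, 54.8 and 48.8 CPM in KO BMP-off and at 60.3, 62.2 and 61.8 CPM in KO BMP-on, a log2 fold change of 0.22 (SE 0.06, adjusted p = 0.017, edgeR). For both genes the BMP-on and BMP-off libraries did not overlap. The count of 2 of 8 receptors stands beside 22.0% of all tested genes that passed in this comparison, so the share is close to that of genes in general.

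At the adjusted p threshold alone, *BMPR2* passed with every other test, scaling, filter and left-out library tried, with log2 fold changes of 0.43 to 0.58, under the study's added fold threshold of 1 on the log2 scale. *ACVR1* did not hold at the adjusted p in every fit. Its call was lost on log2(RPKM + 1) values (adjusted p = 0.083, limma, where 16.4% of genes passed) and without KO BMP-off replicate 3 (0.075), KO BMP-on replicate 1 (0.054), replicate 2 (0.054) or replicate 3 (0.063), all by edgeR. KO BMP-off replicate 3 has the lowest *ACVR1* and *BMPR2* values of its group and the rho of 0.59 with GC content, and without it the *ACVR1* log2 fold change was 0.15. With the GC correction the *ACVR1* change was 0.31 and its adjusted p 3.8e-05 by edgeR. The part of the GC trend in these values was not tested further.

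*BMPR1A* was at 18.7, 20.0 and 17.5 CPM in KO BMP-off and at 20.9, 22.2 and 21.7 CPM in KO BMP-on, groups that did not overlap, with a log2 fold change of 0.20 (SE 0.09, adjusted p = 0.10, edgeR). It passed with the GC correction (adjusted p = 0.0033, edgeR), where 24.7% of all genes passed, within a range of 0.0026 to 0.35 over the alternatives. *ACVR2B* went the other way, from 50.1, 50.5 and 49.6 CPM to 43.6, 45.7 and 43.6 CPM. These groups did not overlap either, and the log2 fold change of -0.18 (SE 0.08, adjusted p = 0.12, edgeR) missed the threshold. Groups that did not overlap were thus found for 3 of 8 receptors with higher BMP-on values, beside 17.9% of all genes, and for 1 with lower values, beside 17.8%.

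*TGFBR1* was at 198, 199 and 178 CPM in KO BMP-off and at 172, 176 and 179 CPM in KO BMP-on, with a log2 fold change of -0.13 (SE 0.06, adjusted p = 0.14, edgeR). The groups overlapped through KO BMP-off replicate 3, and without that library the adjusted p was 0.027. Without WT BMP-off replicate 1, which enters this comparison only through the shared spread, that of *ACVR2B* was 0.046. *ACVR1B*, *ACVR2A* and *TGFBR2* had log2 fold changes of -0.03, 0.04 and -0.01. The median over the 8 tested receptors was 0.01, beside 0.01 over all tested genes.

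Markers moved with BMP signaling too. The summed RPKM of the 6 epithelial markers was 149 to 155 in WT BMP-off, 167 to 180 in WT BMP-on, 140 to 153 in KO BMP-off and 165 to 197 in KO BMP-on. Its members did not move together. In the same order the mean of *KRT7* was 36.7, 53.2, 34.6 and 60.8 RPKM and that of *KRT8* 28.9, 34.6, 27.4 and 40.7 RPKM, both higher with BMP-on, whereas *EPCAM* was at 4.83, 3.24, 4.32 and 2.75 RPKM, lower with BMP-on, and *CDH1* at 1.80, 1.43, 1.65 and 1.56 RPKM. *KRT18* stayed between 78.4 and 80.4 RPKM. The sum of the 3 fibroblast markers, of which *COL1A1* alone reached 1 RPKM, was 2.26 to 3.25, 4.53 to 4.81, 1.92 to 3.08 and 5.37 to 6.49 in the same order. Their part in the receptor changes was not tested.

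**Figure D2:**
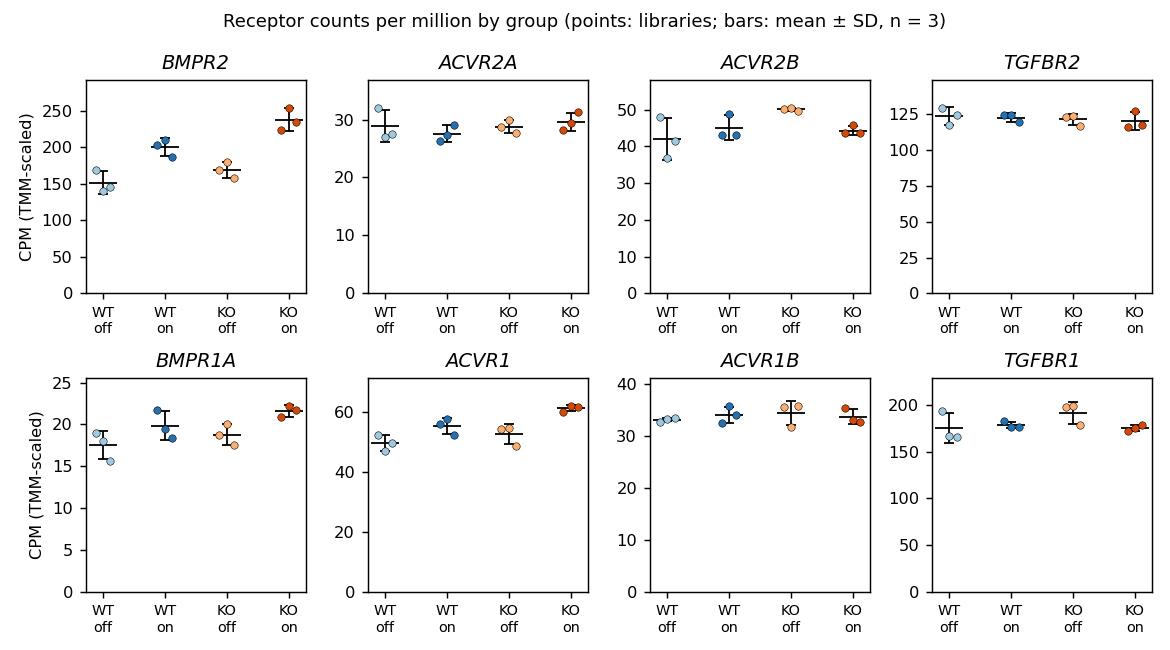
CPM of the 8 tested receptors in the 4 groups (linear axes from 0), with points for libraries and bars for the mean ± SD, n = 3. *BMPR2* is higher in every BMP-on library than in every BMP-off library of the same cells, and *TGFBR2* stays between 116 and 130 CPM in all 12 libraries.

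The next comparison asked whether receptor transcripts differed between KO and WT cells once BMP signaling was on. None of the 8 tested receptors passed by edgeR, beside 3.67% of all tested genes, while 2 had an unadjusted p under 0.05, as did 13.8% of genes. DESeq2 called 0 receptors and 3.94% of genes, and limma-voom called 1 receptor and 3.28% of genes. The 2 were *BMPR2* and *ACVR1*.

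*BMPR2* was at 203, 210 and 186 CPM in WT BMP-on and at 223, 254 and 235 CPM in KO BMP-on, so every KO library lay above every WT library. The log2 fold change was 0.25 (SE 0.07, 95% confidence interval 0.09 to 0.41, adjusted p = 0.0996, edgeR), or 1.19-fold. Its interval leaves out a doubling, a log2 fold change of 1. This value sat close to the threshold. It was past it with limma-voom (adjusted p = 0.018), and by edgeR with the GC correction (0.0091) and with scaling by library size only (0.048, where 3.31% of genes passed). By edgeR it was also past it in a fit of only the groups compared (0.0026, 7.39%), without a filter on low counts (0.00048, 2.48%) and without WT BMP-off replicate 1 (0.034). That library is in neither group compared and enters only through the shared fit. The *BMPR2* value was short of the threshold with DESeq2 (adjusted p = 0.062), and by edgeR with upper-quartile scaling (0.097), at least 10 counts in every library (0.094) and a replicate term (0.090). The same held on log2(RPKM + 1) and log2(RPKM + 0.1) values (0.28 and 0.29, limma) and without each of the other 11 libraries (0.066 to 0.39, edgeR). In these fits the log2 fold change stayed between 0.19 and 0.29.

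*ACVR1* was at 56.3, 57.7 and 52.3 CPM in WT BMP-on and at 60.3, 62.2 and 61.8 CPM in KO BMP-on. The groups did not overlap, and the log2 fold change was 0.15 (SE 0.06, 95% confidence interval 0.02 to 0.27, adjusted p = 0.26, edgeR). It passed with the GC correction (adjusted p = 0.032, edgeR), under which 7.43% of all genes passed, within a range of 0.032 to 0.66 over the alternatives. Higher KO values without overlap were thus seen for 2 of 8 receptors and for 11.4% of all tested genes. The 6 other receptors had overlapping groups, with log2 fold changes of 0.12 for *BMPR1A*, -0.01 for *ACVR1B*, -0.03 for *TGFBR1*, 0.10 for *ACVR2A*, -0.03 for *ACVR2B* and -0.03 for *TGFBR2*.

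With BMP signaling off, KO and WT cells had no receptor that passed. None of the 8 tested did so by edgeR, where 0.0407% of all genes did, and 1 had an unadjusted p under 0.05, as did 10.2% of genes. DESeq2 and limma-voom each called 0, beside 0.186% and 0.0349% of genes. That receptor was *ACVR2B*, at 48.1, 36.8 and 41.4 CPM in WT BMP-off and at 50.1, 50.5 and 49.6 CPM in KO BMP-off. Its KO libraries all lay above its WT libraries, as for 5.76% of genes, and the log2 fold change was 0.25 (SE 0.08, adjusted p = 0.37, edgeR). WT BMP-off replicate 1, the library with the rho of -0.43 with GC content, was the nearest to the KO values, and without it the log2 fold change was 0.37 and the adjusted p 0.048 by edgeR, while without WT BMP-off replicate 2 they were 0.16 and 0.83. Without a filter on low counts, where 0.673% of genes passed, its adjusted p was 0.046.

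*BMPR2* in BMP-off cells was at 169, 140 and 145 CPM in WT and at 168, 180 and 157 CPM in KO. The groups overlapped, and the log2 fold change was 0.15 with a 95% confidence interval of -0.01 to 0.31. *ACVR1* had a log2 fold change of 0.08 (95% confidence interval -0.05 to 0.21). *TGFBR1* had 0.13, with an interval that began at 0.00 and ended at 0.25, and *BMPR1A*, *ACVR1B*, *ACVR2A* and *TGFBR2* lay between -0.03 and 0.09.

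The interaction tested whether the difference between BMP-on and BMP-off was unlike in KO and WT cells. No receptor passed, beside 0.0931% of all genes, by edgeR, and DESeq2 and limma-voom called 0, beside 0.896% and 0.0698% of genes. The *BMPR2* response was larger in KO by 0.10 on the log2 scale, with a 95% confidence interval of -0.13 to 0.32, and that of *ACVR1* by 0.07, with an interval of -0.12 to 0.25. Neither difference exceeded its error, although *ACVR1* passed in KO cells and not in WT cells. *ACVR2B* had the 1 unadjusted p under 0.05 (0.026, edgeR), a level that 10.6% of genes reached, with a difference of -0.28 (95% confidence interval -0.51 to -0.04) and an adjusted p of 0.40 by edgeR. Its log2 fold change was 0.10 in WT and -0.18 in KO cells. The other differences were 0.03 for *BMPR1A*, -0.07 for *ACVR1B*, -0.15 for *TGFBR1*, 0.11 for *ACVR2A* and 0.00 for *TGFBR2*. Half-widths of the receptors' 95% intervals ran from 0.11 to 0.18 in the simple comparisons and from 0.15 to 0.26 here, which limits what these 3 libraries a group could show.

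**Figure D3:**
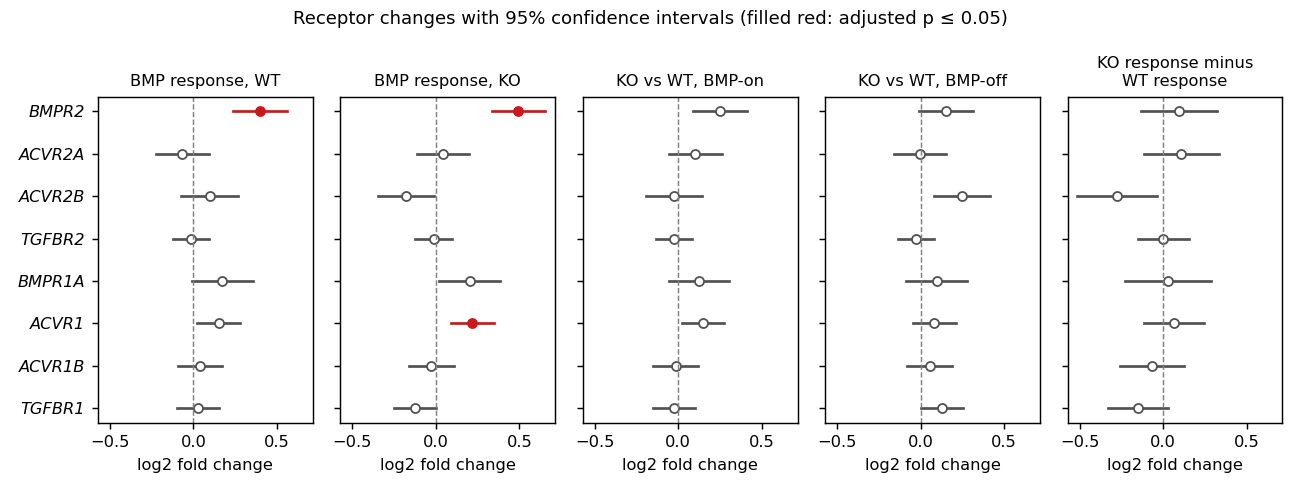
Log2 fold changes (points) of the 8 tested receptors with 95% confidence intervals (lines) in the 5 comparisons, filled red where the adjusted p was at most 0.05 by edgeR. The 3 filled points are *BMPR2* in both BMP responses (0.40 and 0.49) and *ACVR1* in the KO response (0.22), and no receptor is filled in the other 3 panels.

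The genes whose log2 CPM followed *BMPR2* most closely over the 12 libraries were *STXBP5*, a syntaxin-binding protein, with a Pearson's r of 0.990, *DNMBP*, an exchange factor for CDC42, with 0.982, and *DPY19L1*, a C-mannosyltransferase, with 0.975. These r values describe likeness over libraries that share 4 groups and their depth and GC trends, and carry no test. Among the receptors, *ACVR1* was the closest with 0.960, at rank 19 of all tested genes, and *BMPR1A* followed with 0.876, at rank 308. The 5 other tested receptors lay between -0.06 and 0.27. The log2 fold changes of *STXBP5* were 0.41 in the WT response and 0.55 in the KO response, beside 0.40 and 0.49 for *BMPR2*.

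Of 12 further receptors and co-receptors of the family, 7 were tested. *TGFBR3*, or betaglycan, which presents TGF-β to TGFBR2, was the most abundant, at 49.4 to 93.2 RPKM, above every receptor described so far. *NEO1*, a receptor for the RGM co-receptors, was at 18.2 to 21.6 RPKM. *ACVRL1*, the BMP9 receptor ALK1, had 0 to 6 reads per library, and *ENG*, its endothelial co-receptor, had 2 to 17. *AMHR2*, the type II receptor of anti-Müllerian hormone, had 0 to 5.

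*TGFBR3* fell while *BMPR2* rose. It was at 620, 551 and 593 CPM in WT BMP-off and 441, 471 and 446 CPM in WT BMP-on. In KO cells it was at 580, 581 and 564 CPM with BMP-off and 352, 337 and 351 CPM with BMP-on. It fell by 0.38 on the log2 scale in WT cells (SE 0.05, adjusted p = 0.00011, edgeR), by 0.73 in KO cells (adjusted p = 2.8e-08) and by 0.39 in KO against WT with BMP-on (adjusted p = 0.00019). Its interaction of -0.35 did not pass (adjusted p = 0.052, edgeR). *BAMBI*, a pseudoreceptor without a kinase that blocks signaling, rose by 1.35 in WT and 2.31 in KO cells (adjusted p = 7.2e-08 and 2.2e-11, edgeR). With BMP-on it was higher in KO cells than in WT cells by 1.19 on the log2 scale (adjusted p = 1.8e-07, edgeR), and its interaction of 0.96 passed (adjusted p = 0.0026). Its level was 13.0 to 14.6 CPM in WT BMP-off and 75.1 to 85.8 CPM in KO BMP-on.

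Of 92 other pathway genes listed, 62 were tested. In the WT response 5 were higher and 3 lower, in the KO response 8 and 12, in the KO-to-WT comparison 6 and 5 under BMP-on and 1 and 0 under BMP-off, and in the interaction 1 and 0. As background, 1.91% and 2.01% of all genes were higher and lower in the WT response and 11.1% and 10.9% in the KO response. In KO against WT, 3.67% of all genes passed in either direction with BMP-on and 0.0407% with BMP-off. In the interaction 0.0931% did.

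Of 22 BMP and GDF ligands 7 were tested. In the KO response *GDF11*, a ligand of activin type II receptors, rose by 0.20 and *BMP8B* fell by 0.33 (adjusted p = 0.030 and 0.016, edgeR). Of 7 tested ligands for activin, nodal and TGF-β receptors, *TGFB2* fell by 0.96 in WT (SE 0.11, adjusted p = 8.6e-05, edgeR) and by 0.88 in KO cells, with -0.57 in KO against WT with BMP-on (adjusted p = 0.024, edgeR), and *TGFB1* rose by 0.52 in KO cells (adjusted p = 0.019, edgeR). With BMP-off the KO-to-WT value of *TGFB2* was -0.65 and fell just short of passing (adjusted p = 0.0501, edgeR). Among 9 tested extracellular antagonists *NOG*, the BMP trap noggin, rose by 1.45 in WT and 2.30 in KO cells, and *TWSG1* fell by 0.28 in KO cells. With BMP-on, *NOG* was higher in KO cells than in WT cells by 1.24 on the log2 scale (adjusted p = 1.3e-05, edgeR) and *TWSG1* had a log2 fold change of -0.19 (adjusted p = 0.048, edgeR). The *NOG* interaction of 0.85 did not pass (adjusted p = 0.085, edgeR).

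Downstream of the receptors, all 8 SMADs were tested. *SMAD9*, a substrate of BMP type I receptors, rose by 2.41 in WT and 2.19 in KO cells and was the pathway gene that passed in KO against WT with BMP-off, at 0.97 (SE 0.09, adjusted p = 5.6e-05, edgeR). The inhibitory SMADs rose as well, *SMAD6* by 1.44 and 1.42 and *SMAD7* by 1.11 and 1.35. In KO against WT with BMP-on the log2 fold changes were 0.75 for *SMAD9*, 0.48 for *SMAD7* and 0.41 for *SMAD6* (adjusted p = 1.3e-05, 0.0054 and 0.027, edgeR). With BMP-off those of *SMAD7* and *SMAD6* were 0.24 and 0.42 and did not pass (adjusted p = 0.43 and 0.33, edgeR). In the KO response the 5 other SMADs had smaller values, and 4 of them fell and passed (adjusted p = 0.00043 to 0.030, edgeR). In that response 10.9% of all genes passed with lower values.

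All 24 receptor partners and turnover genes were tested. *CAV1*, whose product binds receptors in caveolae, fell by 0.35 in WT and 0.59 in KO cells (adjusted p = 5.8e-05 and 5.6e-08, edgeR), and its log2 fold change in KO against WT with BMP-on was -0.32 (adjusted p = 0.00025). Its interaction of -0.24 did not pass (adjusted p = 0.095, edgeR). *SMURF2*, an E3 ligase that acts on type I receptors with SMAD7, rose by 0.30 in KO cells and was 0.26 higher in KO against WT with BMP-on (adjusted p = 0.0044, edgeR). *NEDD4L*, another ligase of the pathway, fell by 0.27 in KO cells. In the WT response *CAV1* was the only one of the 24 that passed by edgeR.

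**Figure D4:**
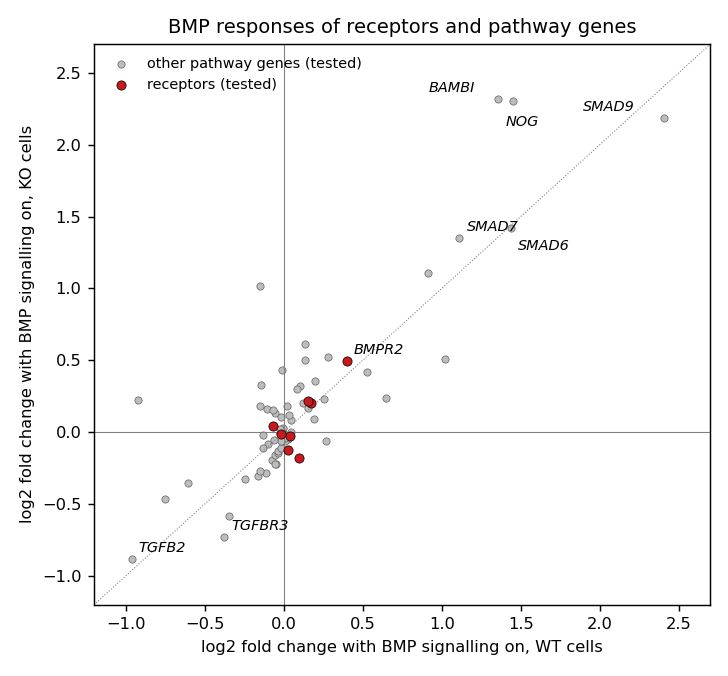
Log2 fold change with BMP signaling on in WT cells (horizontal axis) against that in KO cells (vertical axis) for the 8 tested receptors (red) and 62 other tested pathway genes (grey), with the dotted line at equal values. The receptors lie between -0.18 and 0.49 on both axes, nearer to 0 than *SMAD9*, *BAMBI* and *NOG*.

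Reads could be shared with other genes for few receptors. *ACVR2A* shares 431 of its 6448 exonic bases with *ORC4* and 110 with an unnamed gene, both on the opposite strand, which matters only where counting did not use strand. *BMPR2* shares 57 of 12502 with an unnamed gene on its own strand. The pseudogenes *BMPR1AP1* and *BMPR1AP2* had 11 to 27 and 6 to 15 reads per library, against 344 to 570 for *BMPR1A*. These counts measure transcripts and say nothing of receptor protein at the cell surface.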

How the data were processed

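RNA-seq counts of 12 libraries of MIB1-iKO cells were analysed, in 4 groups of 3 taken from the sample labels. According to the study's methods, the authors discarded reads from ribosomal RNA, mapped the single-end remainder with GSNAP to GRCh38 and used HTSeqGenie to count exonic reads per RefSeq gene. The deposited counts are whole numbers without normalization. The deposited RPKM values, reads per kilobase of gene model per 1000000 reads, were normalized by the authors and served for levels per length and as an alternative. The submitters' processing notes name GSNAP, limma and GRCh38. Whether the low-input or the stranded kit was used for these libraries, and whether strand was used in counting, is not given in the sources used here.

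The test was edgeR 4.0.16 in R 4.3.3 (TMM scaling, default filter on low counts, robust quasi-likelihood fit over all 12 libraries, 17188 genes), with Benjamini-Hochberg adjustment over all genes within each of 5 comparisons and a threshold of 0.05. This replaced the study's limma-voom pipeline, which is among the alternatives, because edgeR was the test set for counts. Total counts were 19124010 to 29498000, and counts of replicates differed by 3.65 to 22.7 times the counting variance. Receptors were matched by symbol through GENCODE release 44, and the 8 tested are named in every comparison. Of each list of other pathway genes, up to 3 with the smallest adjusted p of at most 0.05 are named per comparison, and for *BMPR2* the 3 genes with the highest Pearson's r of log2(CPM + 0.5). The receptors and lists were chosen with earlier results of these data known. The procedure was run on simulated counts that held no GC trend, so that run cannot speak to the GC trends of these libraries.

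The alternatives included limma-voom with quantile normalization (limma 3.58.1), DESeq2 1.42.0, library size or upper-quartile scaling, no filter or at least 10 counts in every library, only the groups compared, a replicate term, a GC correction (loess trend per library on transcript GC, span 0.4), both together, log2(RPKM + 1) and log2(RPKM + 0.1) with a mean RPKM of at least 0.1, the study's fold threshold, and each library left out. Leaving out KO BMP-off replicates 2 and 3 together was added after seeing the data.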

Additional observations from a re-analysis of the deposited data

How the results depend on the processing

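The count of receptors that passed was 1 in the WT response, 2 in the KO response and 0 in the other comparisons. In the WT response it was 2 with the GC correction, with or without the replicate block, and 0 on both RPKM scales. In the KO response it was 3 with the GC correction, with or without the block, 1 on both RPKM scales and 1 without KO BMP-off replicates 2 and 3, which left 1 library in that group, assumed to vary like the others. For KO against WT with BMP-on it was 1 with limma-voom, library size only, no filter and only the groups compared, and 2 with the GC correction, alone or with the replicate block. With BMP-off it was 1 with no filter. With the fold threshold it was 0 in all. With 1 library left out it ranged from 1 to 1, 1 to 3, 0 to 1, 0 to 1 and 0 to 0 in the order WT response, KO response, BMP-on, BMP-off and interaction.

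Other pathway genes numbered 8, 20, 11, 1 and 1 in the same order, beside 3.92%, 22.0%, 3.67%, 0.0407% and 0.0931% of all tested genes. The GC correction gave 14 in the WT response, where 8.89% of all genes passed, and both RPKM scales gave 7 for BMP-on. The fold threshold left 5, 5, 2, 0 and 0, beside 0.425%, 1.66%, 0.140%, 0.0116% and 0.00% of all genes. With BMP-off the count was 2 with DESeq2 (beside 0.186% of all genes), with at least 10 counts in every library and with the GC correction, alone or with the replicate block, and 3 with no filter (0.673%). In the interaction it was 4 with DESeq2 (beside 0.896% of all genes), 2 with limma-voom (0.0698%), and 3 with no filter or the GC correction, alone or with the block. With 1 library left out the counts ranged from 8 to 9, 14 to 24, 7 to 11, 1 to 2 and 1 to 3. Where no share of all genes under the same setting stands beside a count, it cannot be read as particular to these genes. *MIB1* kept its call and direction throughout, from -2.38 to -2.28 with BMP-on and from -2.29 to -2.13 with BMP-off when a library was left out.

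Of 40 receptor comparisons 3 passed, none of which changed sign. Of the 37 others 7 passed under some alternative, and 13 changed sign under one, none of them among those 7. Little sign of pairing by replicate number was seen. Of 18 same-numbered pairs 2 had a correlation of deviations above 0.1, and 3 of 12 libraries correlated best with their own number. Because these deviations also hold the GC trends of the libraries, the check cannot show that pairing was absent. The replicate block alone changed no call of a receptor, with *BMPR2* at 0.40 in the WT and 0.50 in the KO response and *ACVR1* at 0.22 in the KO response. Where a call changed, the cause was not tested. Counts of 2 to 15 reads limit *BMPR1B* and *ACVR1C* to a statement on level.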
